A study of Zea mays with 12 samples.

Results

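Described here are 3 genes of the cytokinin pathway in maize root cells, namely the response regulator genes crr1 (Gene ID 541613, synonym RR11) and RR9 (Gene ID 541638, synonym ZmRR9), and ciszog1 (Gene ID 541881, synonym czog1), which encodes a zeatin O-glucosyltransferase. They are 3 of the 1108 genes that the platform's annotation names, and each was found by symbol or synonym and read by a single probe set among the 17621 that are not AFFX control probe sets of the manufacturer. All 3 genes had been picked for their lower signals in giant cells, averaged over the days, so every giant-against-control value of these genes below is a description, with no test. Their change between 14 and 21 days, which that choice did not use, was tested. Other genes of the pathway were tested in the same giant-against-control comparison, from a list drawn up with earlier results of these arrays known.

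Giant cells and control cells were each sampled at 14 and at 21 days after inoculation, with 3 biological replicates in each of these 4 groups and 1 array per replicate. Giant cells are the enlarged feeding cells that the root-knot nematode Meloidogyne incognita induces in host roots. All plants carried the same genotype, labelled IS A A188 C B73 Cross, and all had been inoculated as seedlings of 2 weeks with 1000 stage 2 juveniles. Each giant-cell sample held about 40 to 60 laser-captured cells over an area near 5000000 square micrometres, whereas each control sample held about 75 to 150 cells over an area near 13000000 square micrometres. Control cells came from uninfested stretches of the same infested roots, so no plant without nematodes was measured, and the labels do not tie a control array to the plant of a giant-cell array.

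Cytokinins are adenine-derived hormones that promote cell division and shape vascular tissue in roots. In plants they are sensed by membrane histidine kinases, from which a phosphate passes to small phosphotransfer proteins and on to response regulators, some of which switch genes on while others are themselves induced by the hormone and dampen the relay. O-glucosyltransferases such as the product of ciszog1, which in maize acts on cis-zeatin, attach glucose to zeatin and give a form that is protected from cytokinin oxidases and can be released again by beta-glucosidases.

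Values are MAS5 signals, which are brightness on a linear scale with every array set by the authors to a common trimmed mean. Median signals over the 12 arrays lay between 182.2 and 229.9, and precision is limited by how many arrays there are. Bacterial and phage transcripts added at hybridization were brighter on giant-cell than on control arrays by 0.70 on the log2 scale. Scaling to them moved the median change of all 12080 tested probe sets to -0.53, against 0.15 without that scaling. In these captured samples, fewer cells of a type and less RNA per cell cannot be told apart.

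crr1 lay in the middle of the signal scale in control cells and lower in giant cells, between the 7.85th and the 43.9th percentile of probe sets on giant-cell arrays, against the 44.7th and the 67.9th on control arrays. At 14 days its signals were 36.7, 163 and 5.04 in giant cells, against 360, 221 and 227 in control cells. At 21 days they were 65.5, 108 and 68.3 in giant cells, against 393, 247 and 163 in control cells. All giant-cell arrays lay below all control arrays of the same day, but giant-cell array 2 at 14 days came to the level of the dimmest control array of 21 days, and array 3 at 14 days lay below the offset of 9.5 that was added before taking logs. On the log2(signal + offset) scale the difference between giant and control cells was -2.02 ± 0.48 as the mean of both days (SE, 6 arrays per cell type), a 4.06-fold lower level, with -2.48 ± 0.68 at 14 days and -1.57 ± 0.68 at 21 days. Single giant-cell arrays decide the size at 14 days, which was -3.39 without array 2 and -1.61 without array 3.

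RR9 showed the smallest difference of the 3 genes. Its signals at 14 days were 428, 489 and 381 in giant cells, against 828, 655 and 468 in control cells, so the brightest giant-cell array lay above the dimmest control array. At 21 days they were 247, 421 and 247 in giant cells, against 513, 451 and 644 in control cells, with no overlap. The log2 difference was -0.69 ± 0.20 as the mean of both days, or 1.61-fold lower, with -0.55 ± 0.28 at 14 days and -0.82 ± 0.28 at 21 days. On every giant-cell array RR9 was above the median of the array, between the 53.8th and the 68.5th percentile of probe sets, and on control arrays it lay between the 70.3rd and the 80.6th.

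ciszog1 was near the bottom of the signal scale in giant cells. Its signals at 14 days were 23.8, 25.5 and 19.3 in giant cells, against 221, 167 and 119 in control cells. At 21 days they were 9.75, 18.6 and 49.8 in giant cells, against 109, 121 and 115 in control cells. The groups were apart on both days, and the brightest giant-cell array, array 3 at 21 days, was at less than the dimmest control array of any day. The log2 difference was -2.20 ± 0.34 as the mean of both days (4.59-fold lower), with -2.43 ± 0.48 at 14 days and -1.97 ± 0.48 at 21 days. Giant-cell arrays placed ciszog1 between the 10.04th and the 24.3rd percentile, where the offset is large beside the signal and compresses the fold, and control arrays placed it between the 37.7th and the 50.4th.

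**Figure D1:**
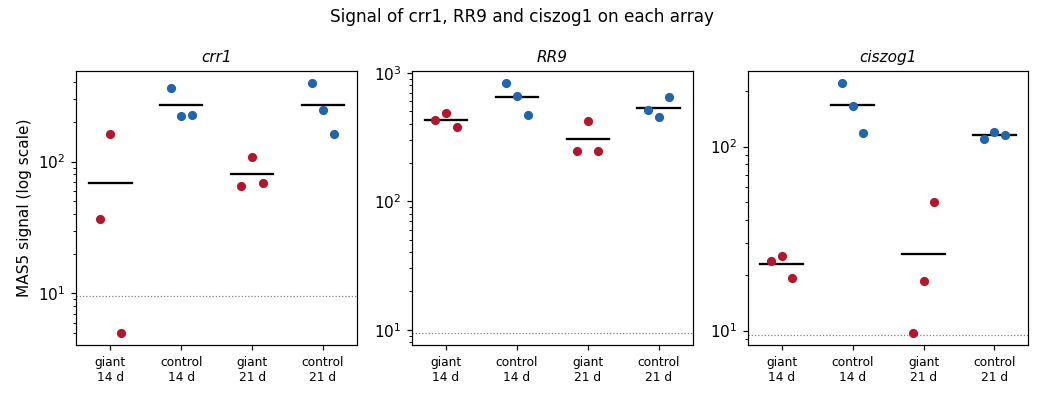
MAS5 signal of crr1, RR9 and ciszog1 on each of the 12 arrays (log scale, each panel with its own axis), with giant cells in red and control cells in blue, points for single arrays, a black line for the group mean of 3 arrays and a dotted line at the offset of 9.5. Giant-cell points lie below the control points of the same day for crr1 and ciszog1, whereas the RR9 points overlap at 14 days, and crr1 spans 5.04 to 163 over the 3 giant-cell arrays at 14 days.

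In all 3 genes both giant-cell groups averaged less than both control groups. crr1 averaged 68.3 ± 83.7 in giant cells and 269 ± 78.8 in control cells at 14 days (SD, n = 3 each), and 80.5 ± 23.7 in giant cells and 268 ± 116 in control cells at 21 days, so within each cell type the days differed by less than the spread. RR9 averaged 432 ± 54.1 in giant cells and 650 ± 180 in control cells at 14 days, and 305 ± 101 in giant cells and 536 ± 98.5 in control cells at 21 days. Its groups formed a ladder from giant cells at 21 days up to control cells at 14 days in which neighbouring groups overlapped. ciszog1 averaged 22.9 ± 3.17 in giant cells and 169 ± 51.2 in control cells at 14 days, and 26.04 ± 21.1 in giant cells and 115 ± 5.69 in control cells at 21 days. Among all tested probe sets, 9.83% had every giant-cell array below every control array of the same day on both days, as crr1 and ciszog1 did, 17.3% did so at 14 days and 15.5% at 21 days. With the genes chosen on this comparison, nothing is read from that share.

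The second question was whether these genes changed between 14 and 21 days. None of the 3 passed the threshold (limma adjusted p under 0.05, over the 12080 probe sets) within giant cells, within control cells or in the difference of the giant-cell change between days, and none had an unadjusted p under 0.05 in any of these. In giant cells 21 days minus 14 days was 0.85 ± 0.68 for crr1 on the log2 scale (95% interval -0.62 to 2.33, limma adjusted p = 0.55). That value became -0.020 without giant-cell array 3 at 14 days and 1.77 without array 2. For RR9 it was -0.53 ± 0.28 (interval -1.14 to 0.08, limma adjusted p = 0.35), the narrowest of the 3, and for ciszog1 -0.02 ± 0.48 (interval -1.06 to 1.01, limma adjusted p = 0.99). On giant-cell arrays ciszog1 lay between the 10.04th and the 24.3rd percentile, so it was bright enough to be tested through control arrays alone. The offset compresses changes of such dim signals, so this value cannot show that ciszog1 stayed the same in giant cells. Over all probe sets 0.637% were called in giant cells between days.

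Control cells gave similar ranges. The change between days was -0.06 ± 0.68 for crr1 (interval -1.53 to 1.41, limma adjusted p = 0.98), -0.25 ± 0.28 for RR9 (interval -0.86 to 0.35, adjusted p = 0.79) and -0.48 ± 0.48 for ciszog1 (interval -1.51 to 0.55, adjusted p = 0.76), where 0.0248% of all probe sets were called. The giant-cell change at 21 days minus that at 14 days was 0.91 ± 0.96 for crr1 (interval -1.17 to 2.99, limma adjusted p = 0.91), -0.28 ± 0.40 for RR9 (interval -1.14 to 0.58, adjusted p = 0.93) and 0.46 ± 0.68 for ciszog1 (interval -1.01 to 1.92, adjusted p = 0.93). No probe set of the 12080 was called by limma in that contrast (0%), and 839 had an unadjusted p under 0.05. Between days within giant cells 2134 had such a p, and within control cells 1190. For crr1 and ciszog1 the interval of the giant-cell change at 21 days minus that at 14 days reaches past 1 log2 unit in either direction. For RR9 that interval, -1.14 to 0.58, reaches past 1 log2 unit in the negative direction only. Differences between days of these sizes are therefore not excluded with 3 arrays per group. For ciszog1 that value also rests on the dim giant-cell signals.

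**Figure D2:**
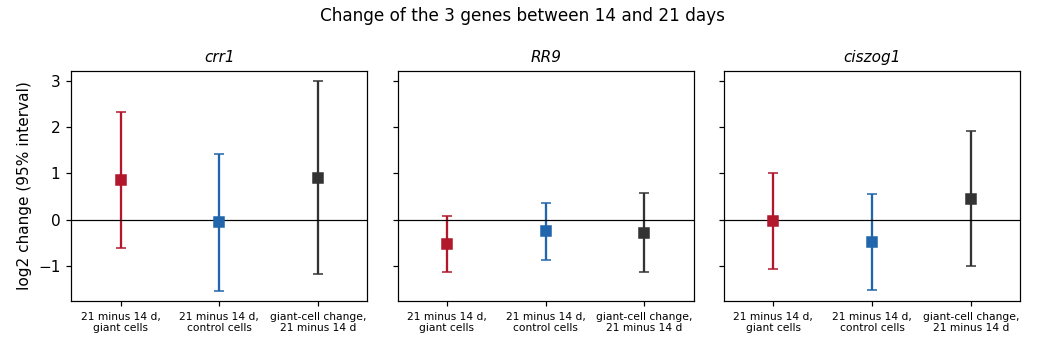
Log2 change of crr1, RR9 and ciszog1 from 14 to 21 days within giant cells (red), within control cells (blue) and as the difference of the giant-cell change between days (dark grey), with 95% intervals from the limma fit of 12 arrays. Every interval spans 0, and those of RR9 are the narrowest.

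The wider pathway was read from a list of cytokinin genes that holds receptors, phosphotransfer proteins, other response regulators and genes of synthesis, breakdown and conjugation. The list was drawn up with earlier results of these arrays known, so its direction is no independent evidence. Besides crr1, RR9 and ciszog1 it matched 19 named genes on the array, and 14 of them were bright enough to be tested. Averaged over the days, 6 of the 14 were lower in giant cells, 1 was higher and 7 did not pass, where 17% of all probe sets were called lower and 25.1% higher. Of the 6, RR4 and RR6 were bright enough to be tested through control arrays alone. The median log2 change of the 14 genes was -0.59, against 0.15 for all probe sets tested. With scaling to the added transcripts 11 were lower and 0 higher, while the calls over all probe sets moved to 41.4% lower and 3.83% higher.

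Among the receptors, HK1, a histidine kinase that senses cytokinin, was the one that fell. Its signals at 14 days were 245, 267 and 168 in giant cells, against 329, 445 and 249 in control cells, and at 21 days 68.0, 145 and 130 in giant cells, against 347, 381 and 369 in control cells. The groups overlapped at 14 days and were well apart at 21 days. HK1 fell by 1.11 on the log2 scale as the mean of both days (SE 0.22, limma adjusted p = 0.0020). It changed by -1.66 at 21 days (limma adjusted p = 0.0048) and stood at -0.56 at 14 days (adjusted p = 0.21), but the difference between the days, -1.10 ± 0.45, did not pass (limma adjusted p = 0.68). The receptor genes hk2 (-0.44, limma adjusted p = 0.19) and hk3 (-0.25, adjusted p = 0.66) did not pass. hk2 did pass without array 3 of control cells at 14 days (-0.69, limma adjusted p = 0.0093).

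Of the phosphotransfer genes, HP1 fell, HP3 rose and hp2 did not pass. HP1 had signals of 221, 273 and 148 in giant cells, against 543, 900 and 783 in control cells, at 14 days. At 21 days HP1 had 459, 345 and 381 in giant cells, against 463, 840 and 738 in control cells, and the brightest giant-cell array nearly reached the dimmest control array. HP1 fell by 1.25 as the mean of both days (SE 0.21, limma adjusted p = 0.00069), with -1.76 at 14 days (adjusted p = 0.0018) and -0.74 at 21 days (adjusted p = 0.10). The difference of 1.02 ± 0.43 between days did not pass (limma adjusted p = 0.68).

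HP3, the only tested gene of the list that rose, had 495, 460 and 429 in giant cells, against 333, 279 and 228 in control cells, at 14 days. At 21 days it had 599, 777 and 554 in giant cells, against 255, 251 and 382 in control cells. Its giant-cell arrays lay above all control arrays of the same day on both days, as did those of 13.3% of all probe sets, with a log2 change of 0.91 ± 0.17 (limma adjusted p = 0.0014). With scaling to the added transcripts it stood at 0.23 (limma adjusted p = 0.45), so the call of HP3 depends on the scaling. hp2 stood at 0.02 ± 0.15 (limma adjusted p = 0.92), and at -0.67 with that scaling (adjusted p = 0.015).

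**Figure D3:**
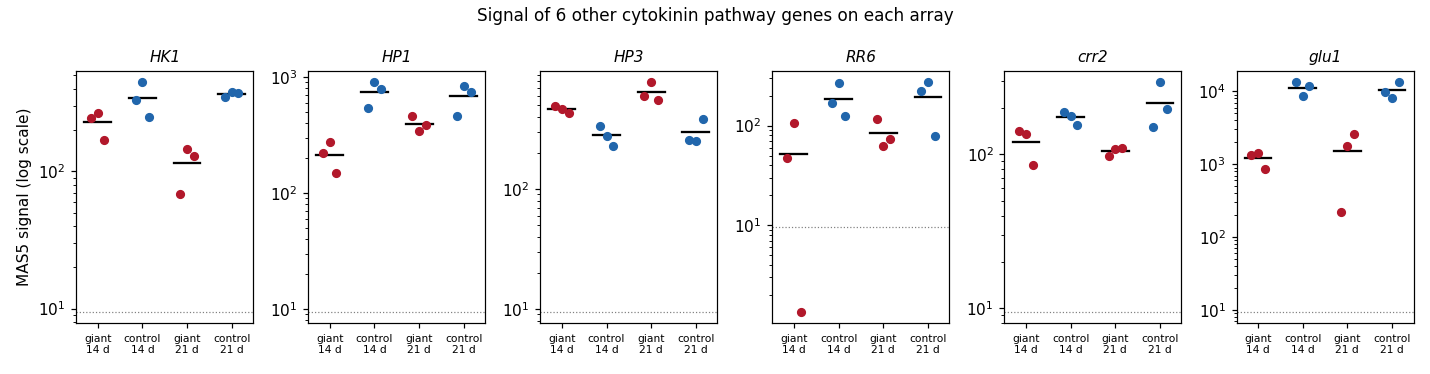
MAS5 signal of HK1, HP1, HP3, RR6, crr2 and glu1 on each array (log scale, each panel with its own axis), with giant cells in red, control cells in blue, a black line for the group mean of 3 arrays and a dotted line at the offset of 9.5. HP3 is higher in giant cells on both days, HK1 and HP1 are lower with the gap widest at 21 days for HK1 and at 14 days for HP1, and glu1 shows the widest gap of the 6.

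Of 7 other response regulators tested, 3 fell and none rose, where 17% of all probe sets were called lower and 25.1% higher. RR6 changed by -1.58 ± 0.51 (limma adjusted p = 0.026), RR4 by -1.07 ± 0.32 (adjusted p = 0.019) and crr2 by -0.71 ± 0.22 (adjusted p = 0.020). RR6 had signals of 47.8, 106 and 1.36 in giant cells, against 167, 264 and 125 in control cells, at 14 days. At 21 days it had 115, 62.8 and 72.9 in giant cells, against 224, 272 and 78.4 in control cells, where the groups overlapped. These calls rest on few arrays. RR6 lost its call when any 1 of 5 arrays was left out (limma adjusted p up to 0.064, the highest without array 2 of control cells at 21 days), RR4 without array 3 of control cells at 14 days (adjusted p = 0.052) and crr2 without array 2 of control cells at 21 days (adjusted p = 0.059).

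The regulators that did not pass were RR7 (-0.77, limma adjusted p = 0.0501), RR8 (-0.46, adjusted p = 0.15), RR5 (-0.40, adjusted p = 0.29) and RR10 (0.04, adjusted p = 0.89). Beside these 7, crr1 and RR9 had -2.02 and -0.69. A second, dimmer probe set of RR4 did not reach the brightness needed for the test. Its signals ran from 33.7 to 70.1 in giant cells, against 49.0 to 163 in control cells. abph1 (synonym RR3), a response regulator known for its role in the arrangement of maize leaves, was also too dim, with 4.10 to 74.8 in giant cells, against 2.46 to 32.8 in control cells.

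On the side of conjugation, glu1 was the only tested gene besides ciszog1. It encodes the maize beta-glucosidase p60.1, which can release cytokinins from their glucosides and also acts on benzoxazinoid glucosides. Its signals at 14 days were 1344, 1407 and 854 in giant cells, against 13313, 8609 and 11763 in control cells. At 21 days they were 220, 1775 and 2562 in giant cells, against 9663, 8098 and 13355 in control cells. No giant-cell array came near a control array, and glu1 fell by 3.27 on the log2 scale (SE 0.46, limma adjusted p = 0.00021), or 9.66-fold.

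The genes of cytokinin breakdown gave little to compare. The cytokinin oxidase genes cko (synonym ckx1), cko2 and cko3, and the beta-glucosidase gene glu2, were not bright enough to be tested. cko had signals of 1.199 to 19.9 in giant cells, against 4.09 to 48.8 in control cells. cko2 had 2.28 to 112 in giant cells, against 38.7 to 293 in control cells. No gene of cytokinin synthesis was matched. Of the other small-molecule glucosyltransferase genes looked for, only iaglu, which encodes an enzyme that conjugates auxin, was matched, and its signals overlapped, with 36.3 to 103 in giant cells, against 18.4 to 107 in control cells.

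**Figure D4:**
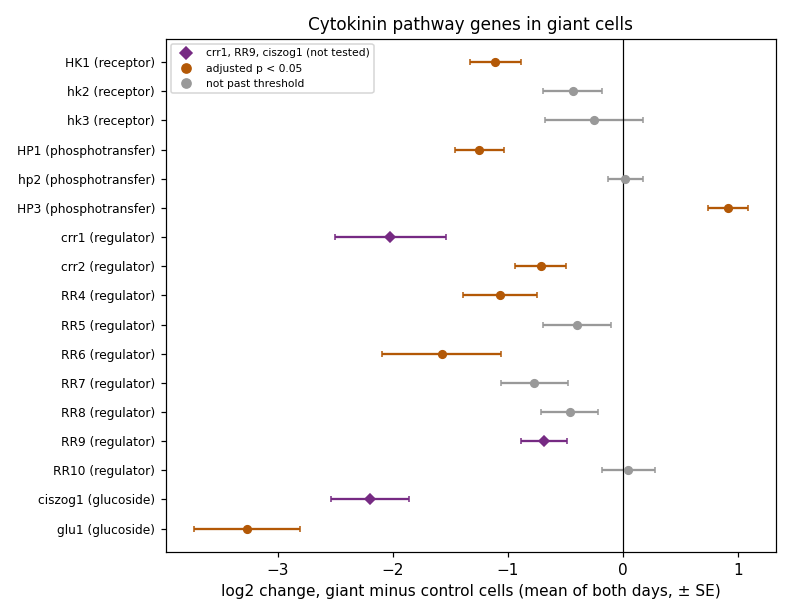
Log2 change of 17 cytokinin pathway genes in giant against control cells, averaged over the days (bars are SE, 6 arrays per cell type), ordered by role from receptors to genes of cytokinin glucosides. crr1, RR9 and ciszog1 (purple diamonds) were chosen on this comparison and carry no test, orange points passed an adjusted p of 0.05 and grey ones did not, and HP3 is the only orange point above 0.

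By single days, 3 of the 14 other genes were lower and 1 higher at 14 days, where 12% of all probe sets were called lower and 15.5% higher. At 21 days 2 were lower and 1 higher, with 8.73% and 9.63% of all probe sets. glu1 fell and HP3 rose on each day, HP1 and RR6 (limma adjusted p = 0.042) were called at 14 days, and HK1 at 21 days. None of the 14 was called by limma between days in giant cells, where 4 had an unadjusted p under 0.05, or in control cells, where 0 did. Among all 12080 probe sets 2134 had such a p in giant cells and 1190 in control cells, so nothing particular to the pathway is read from these counts.

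Over the 12 arrays, the pattern of crr1 was most like that of tub4, a beta-tubulin gene, with Pearson's r of 0.931 on the log2 scale among 688 named genes. Next came the secondary wall cellulose synthase genes cesa11 (0.924) and CesA12 (0.907), the response regulator RR6 (0.904) and GR2b (0.897). These values include the difference between cell types. Taken as deviations from the 4 group means, which leaves that difference out, r was 0.958 for cesa11, 0.899 for CesA12, 0.834 for tub4 and 0.807 for RR6. They are descriptions of 12 arrays that share their preparation, with no test.

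Of the 4 xylem markers listed for checking tissue, the cellulose synthase genes cesa10, cesa11 and CesA12 fell as the mean of both days and LAC1 did not pass. Their log2 changes were -3.28, -2.54 and -2.51 (limma adjusted p = 0.0030, 0.0071 and 0.0074), where 17% of all probe sets were called lower. At 21 days alone cesa10, cesa11 and CesA12 did not pass (limma adjusted p = 0.074, 0.21 and 0.14). LAC1 stood at 0.40 ± 0.29 on the log2 scale (limma adjusted p = 0.28), and at -0.27 with scaling to the added transcripts (adjusted p = 0.44). Its signals were 268, 267 and 278 on giant-cell arrays 1, 2 and 3 at 14 days, and ran from 249 to 517 in giant cells at 21 days. In control cells LAC1 ran from 148 to 365 at 14 days and from 171 to 422 at 21 days. None of the 4 was at 0, and their summed signal ran from 308 to 1017 in giant cells and 1596 to 3022 in control cells at 14 days, and from 314 to 702 in giant cells and 715 to 2744 in control cells at 21 days. The 3 cellulose synthase genes summed to 97.6, 750 and 29.9 on giant-cell arrays 1, 2 and 3 at 14 days, on which crr1 had 36.7, 163 and 5.04. On giant-cell arrays at 21 days they summed to 65.5, 260 and 148, on which crr1 had 65.5, 108 and 68.3. The arrays stood in the same order for both measures in 3 of 4 groups for crr1, 2 of 4 for RR9 and 2 of 4 for ciszog1. The brightest array was the same in 4 of 4 groups for crr1, 3 of 4 for RR9 and 2 of 4 for ciszog1, and the difference between the genes was not tested. Since cesa11 and CesA12 were among the 5 named genes nearest to crr1, its counts only restate that likeness. For RR9 in giant cells at 21 days the order turned on 246.8 against 246.6 on arrays 1 and 3, close to a tie. The 3 cellulose synthase genes were singled out, and LAC1 left out of their sum, after their values were seen, and the part of xylem in the crr1 difference was not tested.

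**Figure D5:**
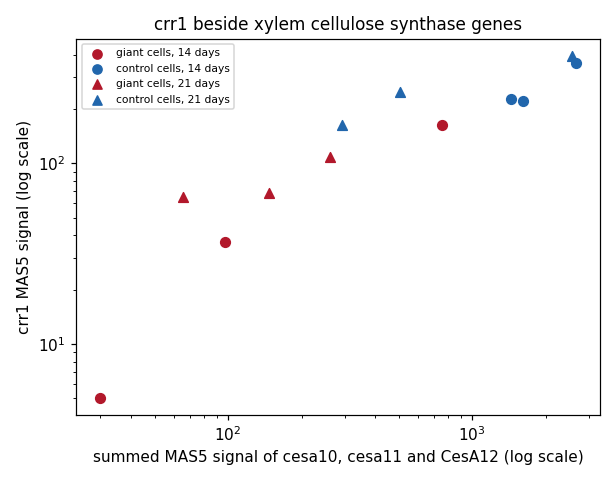
Signal of crr1 against the summed signal of cesa10, cesa11 and CesA12 on each of the 12 arrays (both axes on a log scale), without the xylem marker LAC1, which did not fall, with giant cells in red, control cells in blue, circles for 14 days and triangles for 21 days. Among giant-cell arrays, array 3 at 14 days was lowest in both measures (crr1 at 5.04) and array 2 of the same day highest in both (crr1 at 163).

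Other tissue markers moved too. Of 3 meristem regulator genes listed under root meristem and cap, lg3 and rs2 rose in giant cells, and KN-1 was too dim to be tested. Whether they mark root meristem or cap in these roots was not shown, so no rise of that tissue is read from them. The summed signal of the 3 genes ran from 225 to 487 in giant cells and 60.4 to 126 in control cells at 14 days, and from 186 to 410 in giant cells and 79.1 to 153 in control cells at 21 days. Of the 2 markers of root hair and epidermis, rbohB rose and rop6 fell. With scaling to the added transcripts rs2 (0.95, limma adjusted p = 0.051) and rbohB (0.07, adjusted p = 0.82) were no longer called, while lg3 and rop6 were. lg3 and rs2 were bright enough to be tested through giant-cell arrays alone, so no support is drawn from their calls. The phloem marker sut1 was dim everywhere, with 3.51 to 44.3 in giant cells and 7.97 to 38.2 in control cells, and no marker of photosynthetic tissue was called. The part of these tissues in the differences above was not tested. No marker that defines giant cells themselves was in the lists.

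ciszog1 followed another set of genes. Its nearest named genes over the 12 arrays were those of the tonoplast water channels TIP2-1 (r = 0.987), por2 (synonym TIP2-3, 0.967) and TIP2-2 (0.948), the plasma membrane water channel PIP1-5, listed as pip (0.956), and glu1 (0.947). As deviations from the group means r was 0.916 for TIP2-1, 0.742 for glu1 and 0.382 for TIP2-2. TIP2-1 had signals from 65.8 to 814 in giant cells, against 4040 to 8496 in control cells, with its brightest giant-cell array at the one where ciszog1 had 49.8. RR9 was nearest to spds2 (0.901), a spermidine synthase gene, the kinesin gene KIN6 (0.894), cyclotide (0.890), the Polycomb gene mez1 (0.889) and ibp2 (0.878), with deviations correlated at 0.694 for spds2 and 0.788 for ibp2.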

How the data were processed

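The authors deposited linear signal intensity for every probe set, made with the MAS5 method in Affymetrix Expression Console per the submitters' processing notes. Trimmed means of 500.1 or 500.2 on all arrays show a common scaling. Of 17734 probe sets, 113 AFFX controls were left out, while a few reporter-gene probe sets stayed. The offset of 9.5, the 10th percentile of all signals, was added before log2. Probe sets above the 40th percentile of their array on at least 3 arrays were tested, 12080 in all. A mean per group was fitted with limma 3.58.1 (variance trend) in R 4.3.3, two-sided, with Benjamini-Hochberg adjustment over the probe sets of a contrast and a threshold of 0.05. The fit was checked on simulated data with changes far larger than the changes between days reported here. That check does not show how small a change could be found. Positive differences mean higher in giant cells or at 21 days.

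Genes were named from the platform's annotation (1452 probe sets with 1 gene, 1 with several, 16168 unnamed) and RefSeq symbols of the B73 assembly. The brightest probe set stood for a gene. Named were crr1, RR9, ciszog1, the matched cytokinin genes, and for each of the 3 the 5 named genes of highest Pearson r over the arrays. Members and lists were chosen with earlier results of these data known. Replicate numbers recur across groups without a stated pairing. Correlations of deviations between same-numbered arrays ran from -0.07 to 0.24 (median 0.04), against -0.27 to 0.20 (median -0.02) between differently numbered ones. No block was used in the reported fit. Alternatives were other offsets, filters, scalings and variance models, a replicate block, and each array left out. No sequences are shown.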

Additional observations from a re-analysis of the deposited data

How the results depend on the processing

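With scaling to the added transcripts the log2 difference between giant and control cells was -1.37 for RR9, -2.77 for ciszog1 and -2.61 for crr1. The other pathway genes called became 11 lower and 0 higher, where 41.4% of all probe sets were lower and 3.83% higher. RR10 (-0.61) and hp2 (-0.67) changed sign. An offset of 32 gave -1.62 for ciszog1. A stricter filter on signal left 7 of the 14 other genes, since it tests fewer probe sets, and it removed crr1 and ciszog1. Of the 7, 3 were lower and 1 higher, where 18.1% of the probe sets tested were lower and 26.2% higher. Leaving out single arrays gave 4 to 7 lower and 1 higher, where 14.9% to 17.9% of all probe sets were lower and 20.4% to 26.8% higher. The log2 difference then ranged from -2.48 to -1.59 for crr1, -0.81 to -0.59 for RR9 and -2.43 to -2.02 for ciszog1. RR7 (limma adjusted p = 0.0501) passed in 7 of these alternatives, among them quantile normalization (adjusted p = 0.036).

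Between days, no alternative brought crr1, RR9 or ciszog1 past the threshold. Values near 0 changed sign: ciszog1 in giant cells was 0.023 with an offset of 32 and -0.47 to 0.34 without single arrays, and crr1 in control cells was 0.0027 with quantile normalization, 0.023 with scaling to the added transcripts and -0.37 to 0.24 without single arrays. crr1 in giant cells ran from -0.020 to 1.77 without single arrays. In giant against control cells, RR10 was -0.0082 with quantile normalization and -0.063 to 0.17 without single arrays, hk3 -0.56 to 0.038 and hp2 -0.063 to 0.094. With the replicate number as a block the other pathway genes stayed at 6 lower and 1 higher, where 17.1% of all probe sets were lower and 24.4% higher. No day contrast of the 3 genes was called with that block (0 in each). The causes of these shifts were not tested. Dim signal in giant cells limits crr1, RR6 and ciszog1.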
